A study of Mus musculus with 89 samples.

Results

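The table examined here lists exon skipping in nucleus accumbens of mice that received dCas9-SET2 with a guide RNA, and it holds its reads as 2 unnamed sets of 16 values. An event is an internal exon with its upstream and downstream neighbours, with the reads that include the exon and those that skip it. Of 5608 events in 3434 genes, 2298 events (41.0%), from 1521 genes and 2237 distinct exons, had a mean of 20 reads per summed library and 10 reads of the rarer form, and were kept. The series lists 33508 events in 2 tables, and 32 of its 89 samples are runs of this experiment.

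The series concerns chromatin, alternative splicing and cocaine reward in the nucleus accumbens, a striatal region built mostly of medium spiny neurons. The mice were C57BL/6, wild type and 8 weeks old. All of them carried dCas9-SET2, a Cas9 without cutting activity fused to a histone methyltransferase, with either sgRNA-SRSF11, a guide to Srsf11, or the non-targeting sgRNA-NT. Each guide has 16 runs, filed under 4 sample names of 4 runs each. The labels name no cell type that expresses the fusion and do not say that the sample names are separate animals. The p-values below therefore measure the spread between these summed libraries, which may be technical. The table names no guide for either set, so differences are given only as set 2 against set 1.

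SET2 enzymes place trimethylation on lysine 36 of histone H3 along transcribed gene bodies, a mark that splicing regulators can read. Srsf11 encodes an SR-related protein, one of a family with arginine and serine rich domains that helps the spliceosome to select exons. SR protein genes often splice their own transcripts in alternative ways, among them through exons that carry a premature stop codon. The inclusion level (PSI) is the fraction of transcripts that include an exon, estimated from inclusion reads corrected for exon length and from skipping reads.

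Reads at positions 4 and 8 were identical in all 5608 events of both sets, and no other pair of positions was identical. Position 8 was dropped, and positions 1 to 4, 5 to 7, 9 to 12 and 13 to 16 were summed into 4 libraries per set. Summed libraries held 403230, 246291, 381816 and 357680 reads in set 1, and 272378, 243478, 278238 and 233935 in set 2. Set 1 was thus deeper in 3 of its 4 libraries than any library of set 2 (exact permutation p = 0.0857, two-sided, where 4 against 4 cannot go below 0.0286). The median tested event had 52 reads per library. Of 9 medium spiny neuron markers, only Pde10a has an event in the table, so the labelled region could not be checked on its main cell type. Neurons (3 of 4 markers), oligodendrocytes (3 of 6) and astrocytes (3 of 6) were present, while the 6 microglia, 3 cortex and 3 choroid plexus markers listed for the check have no event here.

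Srsf11, the gene that the guide names, has 4 events on the minus strand of chromosome 3, inside its GRCm38 span of 158010915 to 158036667. The 117-nt exon at chr3:158023243-158023359 was the deepest of them, with a mean of 44.6 reads per library. Its PSI was 0.414, 0.508, 0.424 and 0.192 in set 1, and 0.539, 0.579, 0.397 and 0.478 in set 2. In set 2, libraries 1 and 2 lay above every library of set 1, while libraries 3 and 4 lay within the range of set 1, so the sets overlap. The means were 0.385 ± 0.135 and 0.498 ± 0.079 (SD, n = 4). The difference on the logit scale was 0.40 (95% confidence interval -0.20 to 1.01, adjusted p = 0.936 in limma, exact permutation p = 0.2). Without library 4 of set 1, which had the lowest PSI, this difference was 0.18. The authors' deposited table gives this event a dPSI of 0.190 with padj 0.0345.

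The 109-nt exon of Srsf11, at chr3:158024123-158024231, stands in 2 events with different neighbouring exons. In the event that spans both alternative exons, its PSI was 0.141, 0.151, 0.157 and 0.054 in set 1 and 0.175, 0.290, 0.110 and 0.183 in set 2. In set 2, 3 libraries lay above set 1, and library 3 lay within its range. The logit difference was 0.40 (95% confidence interval -0.43 to 1.23, adjusted p = 0.955 in limma). It was 0.13 without library 4 of set 1, 0.26 without library 2 of set 2 and 0.65 without library 3 of set 2. This event and that of the 117-nt exon count the same skipping reads, 82 in set 1 and 56 in set 2, so they are not separate evidence.

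The other Srsf11 events stayed below the read minimum. The short event of the 109-nt exon had a mean of 9.12 reads per library and a PSI of 0.668 ± 0.326 in set 1 and 0.631 ± 0.128 in set 2 (SD, n = 4). The 64-nt exon, at chr3:158024698-158024761, had 15.8 reads and a PSI of 0.548, 1.00, 0.618 and 0.680 in set 1 and 0.820, 0.810, 0.732 and 0.465 in set 2. The sets overlap in both events, and their means differed by less than the spread between libraries. CPM, TMM-scaled, are taken over the summed deepest events of the genes kept for coverage, not over all reads of a library. Coverage of Srsf11, the reads of its deepest event in CPM, was 241, 156, 237 and 157 in set 1 and 175, 168, 304 and 321 in set 2. Libraries 3 and 4 of set 2 were the highest and the others lay within set 1 (log2 difference 0.26 ± 0.26 SE, adjusted p = 0.759 in limma). The interval of the 117-nt exon runs from a small loss to a gain of 1.01 on the logit scale. Both no change and a change within that interval are therefore compatible with these reads.

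**Figure D1:**
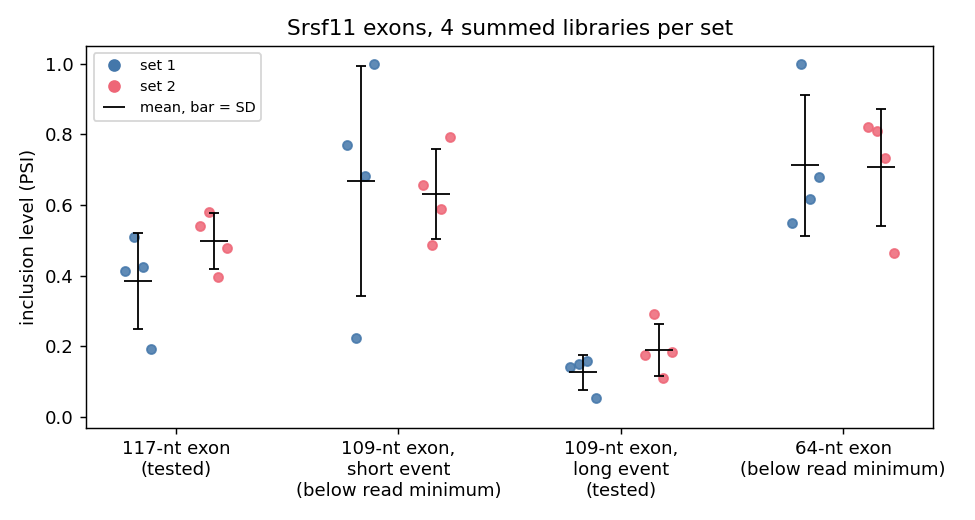
Inclusion level (PSI, 0 to 1) of the 4 Srsf11 events in each summed library, set 1 in blue and set 2 in red, with the mean and SD of 4 libraries. The 117-nt exon has means of 0.385 and 0.498, and its sets overlap.

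Across all 2298 events, limma called 0 at an adjusted p below 0.05 (0% of those tested), with a smallest adjusted p of 0.414. At an unadjusted p below 0.05 there were 128 events (5.57%) in 118 genes, 71 of them higher in set 2 (3.09%) and 57 lower. Of these genes, 9 had 2 or more such events, which are not independent of each other. Srsf6, Hnrnpc, Pcbp2, Myo18a, Ank3 and Mapt are among the 9 and belong to lists below, so counts of events there are not counts of genes. A quasi-binomial model on the same libraries called 2 events, in Mbp and Psap, and had 112 at an unadjusted p below 0.05. Without library 1 of set 1, limma called 1 event, that of Psap. The sets did not overlap in 79 events (3.44%), 45 higher and 34 lower in set 2. With weights from each library's own counts, limma called the events of Mbp and Psap (adjusted p = 0.00542 and 0.0371). None of the leading exons below passed the adjusted test in the main limma fit, so their values are descriptions.

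Mbp encodes myelin basic protein, a main protein of the myelin sheath made by oligodendrocytes. An event of its 123-nt exon had the smallest p of all events and a mean of 2063 reads per library. The PSI was 0.263, 0.247, 0.225 and 0.238 in set 1 and 0.212, 0.207, 0.152 and 0.175 in set 2. All 4 libraries of set 2 lay below all of set 1. The means were 0.243 ± 0.016 and 0.186 ± 0.028 (SD, n = 4), a logit difference of -0.34 with a 95% confidence interval of -0.49 to -0.18. The adjusted p was 0.414 in limma and 0.00369 in the quasi-binomial model. Leaving out 1 library at a time moved limma's adjusted p between 0.130 and 0.935. The other 4 tested Mbp events, among them a 78-nt exon with PSI 0.143 ± 0.019 and 0.133 ± 0.004 (SD, n = 4), had adjusted p of 0.955 to 0.980 in limma. They include another event of the same 123-nt exon, with a mean of 198 reads per library. In that event the PSI was 0.986 ± 0.013 in set 1 and 0.979 ± 0.025 in set 2 (SD, n = 4).

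Psap encodes prosaposin, the precursor of the saposins that help to degrade sphingolipids in lysosomes. Its 9-nt microexon, at chr10:60297537-60297545, had a mean of 1719 reads per library. The PSI was 0.435, 0.297, 0.303 and 0.313 in set 1 and 0.484, 0.404, 0.446 and 0.390 in set 2. Library 1 of set 1 stood apart from the other libraries of its set and lay within the range of set 2. The logit difference was 0.39 (95% confidence interval 0.17 to 0.62), with an adjusted p of 0.491 in limma and 0.00850 in the quasi-binomial model. Without library 1 of set 1 it was 0.54, with an adjusted p of 0.00180 in limma.

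Both exons are among the deepest of the table. Pearson dispersion, the spread of inclusion relative to binomial counting, was 1.40 over the runs of a summed library and 1.92 over the libraries of a set. Over the libraries it was 1.67 for events of 20 to 50 reads, 1.96 for 50 to 200 and 2.98 above 200. Runs within a library showed 1.40, 1.39 and 1.43 in the same classes. At a fixed spread between samples this measure grows with reads, so its rise over the libraries does not show a wider spread in deep events. The median SE of the logit difference was 0.456, 0.347 and 0.328 in these classes, so events above 200 reads were only slightly more precise than those of 50 to 200.

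**Figure D2:**
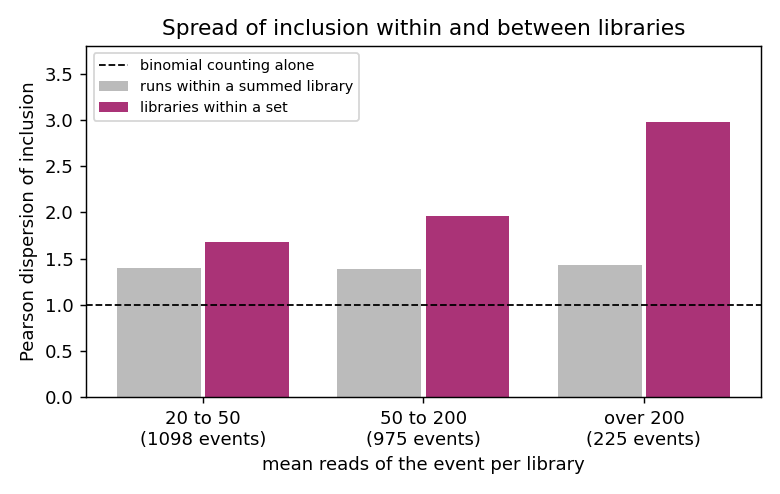
Pearson dispersion of inclusion (1 is binomial counting alone, dashed line) for runs within a summed library in grey and libraries within a set in purple, by mean reads per library. The purple bars go from 1.67 to 2.98, while the grey bars stay between 1.39 and 1.43.

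Genes of the splicing machinery stood among the leading events. Nktr encodes a cyclophilin with an SR domain, and its 1688-nt exon at chr9:121738388-121740075 had the second smallest p. Its PSI was 0.624, 0.494, 0.448 and 0.540 in set 1 and 1.00, 0.876, 0.699 and 1.00 in set 2. The sets did not overlap. The means were 0.527 ± 0.075 and 0.894 ± 0.142 (SD, n = 4; logit difference 2.00 ± 0.51 SE, adjusted p = 0.443 in limma). The PSI rests on 24 skipping reads in set 1 and 2 in set 2, against 513 and 434 inclusion reads. With so few skipping reads the counting error is large, and the quasi-binomial model gave an adjusted p of 0.969. With 0.1 added to each count in place of 0.5, the logit difference was 3.04.

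Srsf3 encodes an SR protein whose 456-nt cassette exon, known to carry a premature stop codon, is part of its feedback control. In set 1 the PSI of this exon, at chr17:29039454-29039909, was 0.366, 0.331, 0.271 and 0.241. In set 2 it was 0.455, 0.330, 0.492 and 0.490, so 3 libraries lay above set 1 and library 2 within it. The means were 0.302 ± 0.056 and 0.442 ± 0.077 (SD, n = 4; logit difference 0.62 ± 0.17 SE, adjusted p = 0.443 in limma). Srrm2, a large SR-related scaffold of nuclear speckles, had a 95-nt exon with PSI 0.046, 0.032, 0.029 and 0.047 against 0.057, 0.077, 0.072 and 0.093, with no overlap. Srsf2, another SR protein, had a 104-nt exon that was lower in set 2, at 0.154 ± 0.050 against 0.079 ± 0.017 (SD, n = 4), with overlap (adjusted p = 0.714 in limma).

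The list of SR proteins and their kinases holds 45 tested events in 25 of its 46 genes. Of these, 7 (15.6%) had an unadjusted p below 0.05, 5 higher and 2 lower in set 2, beside 5.57% of all tested events. The median logit difference of the list was 0.19, beside 0.03 over all events. Leaving out 1 library at a time gave 4 to 6 such events, and 4 without library 2 of set 1 or without library 1 of set 2. The fits with no weights or with 0.1 added to each count also gave 4. This list and the other gene lists below were chosen with earlier results of these data known, so their shares are descriptions.

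Core spliceosome genes had 4 of 28 tested events (14.3%) at an unadjusted p below 0.05, 1 higher and 3 lower, beside 5.57% of all tested events. Prpf38b, a pre-mRNA splicing factor, had a 53-nt exon with PSI 0.289, 0.094, 0.183 and 0.069 in set 1 and 0.063, 0, 0.054 and 0.032 in set 2, without overlap. Prpf39, a component of the U1 snRNP, had a 163-nt exon at 0.232 ± 0.078 in set 1 and 0.455 ± 0.127 in set 2 (SD, n = 4). Its sets overlap in 1 library of set 2. The number at an unadjusted p below 0.05 was 1 without library 3 of set 2, 2 without library 1 of set 1 and 5 without library 2 of set 2.

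The list of hnRNP genes and neuronal RNA binders had 6 of 75 tested events (8%) with an unadjusted p below 0.05, beside 5.57% of all tested events. Of the 6, 4 were higher and 2 lower. Fmr1, whose protein FMRP regulates translation at synapses, had a 63-nt exon with PSI 0.526, 0.581, 0.478 and 0.577 in set 1 and 0.699, 0.724, 0.638 and 0.691 in set 2. All of set 2 lay above set 1, at a logit difference of 0.61 ± 0.29 SE (adjusted p = 0.886 in limma). Hnrnpc, an RNA packaging protein, had a 229-nt exon at 0.181 ± 0.038 and 0.250 ± 0.039 (SD, n = 4), and library 4 of set 2 lay within set 1. The count was 2 without library 1 of set 2, 3 without library 4 of set 1 and 4 without library 3 of set 1. It rose to 8 without library 2 of set 1 and to 7 without library 4 of set 2.

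Cytoskeleton and small GTPase genes formed the largest list, with 187 tested events. Of these 12 (6.42%) had an unadjusted p below 0.05, 9 higher and 3 lower, a share close to that of all events. Myo18a, an unconventional myosin, had a 144-nt exon with PSI 0.310, 0.129, 0.115 and 0.289 in set 1 and 0.550, 0.344, 0.655 and 0.475 in set 2, without overlap (adjusted p = 0.443 in limma). Its 36-nt form, which shares the start and the skipping reads of the longer exon, was likewise apart, at 0.238 ± 0.057 and 0.485 ± 0.046 (SD, n = 4). These forms had means of 27.6 and 21.4 reads per library. A separate 45-nt exon of Myo18a, with a mean of 68 reads, was lower in set 2. Its PSI was 0.222 ± 0.033 and 0.142 ± 0.083 (SD, n = 4), with overlap (adjusted p = 0.886 in limma). Enah, an actin regulator of the Ena/VASP family, had a 12-nt microexon with PSI 0.342, 0.225, 0.191 and 0.292 against 0.457, 0.373, 0.594 and 0.386. For this Enah exon every library of set 2 was above set 1. Ank3, the ankyrin of the axon initial segment, had a 218-nt exon that was lower in set 2, at 0.452 ± 0.127 against 0.252 ± 0.057 (SD, n = 4), also without overlap. Without library 1 of set 1 the list had 18 events at an unadjusted p below 0.05, and without library 4 of set 2 it had 9.

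Glutamate receptor and postsynaptic genes had 4 of 85 events (4.71%) at an unadjusted p below 0.05, all 4 higher in set 2. Of all tested events, 5.57% reached this p, and 3.09% did so with a higher value in set 2. Dlgap1, a scaffold of the postsynaptic density, had a 109-nt exon with PSI 0.290, 0.222, 0.173 and 0.144 in set 1 and 0.405, 0.296, 0.364 and 0.405 in set 2, without overlap. Camk2d, a subunit of CaM kinase II, had a 42-nt exon at 0.732 ± 0.088 and 0.836 ± 0.058 (SD, n = 4), with overlap. The count of the postsynaptic list was 2 without library 3 of set 2 and 5 without library 2 of set 2. Presynaptic and endocytosis genes had 6 of 73 events (8.22%), 3 in each direction, beside the same 5.57% of all tested events. Dnajc5, the cysteine string protein of synaptic vesicles, had a 75-nt exon with PSI 0.077, 0.080, 0.123 and 0.120 in set 1 and 0.046, 0.038, 0.078 and 0.038 in set 2. Clta, a clathrin light chain, had a 36-nt exon at 0.178 ± 0.033 and 0.252 ± 0.051 (SD, n = 4). Both exons overlap between the sets.

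Neuronal adhesion genes had 3 of 72 events (4.17%) at an unadjusted p below 0.05, and ion channel and transporter genes 0 of 42. The share over all tested events was 5.57%. Chromatin genes, those of H3K36 methylation among them, had 1 of 50 events (2%). It is the 27-nt exon of the corepressor gene Ncor1, at 0.428 ± 0.029 and 0.279 ± 0.111 (SD, n = 4) without overlap. Medium spiny neuron, dopamine and cocaine genes had 1 of 16 (6.25%). It is the 21-nt exon of Mef2d, an activity-regulated transcription factor, with PSI 0.834, 0.822, 0.790 and 0.758 against 0.868, 0.921, 0.935 and 0.896, also without overlap.

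Marker genes of cell types had few tested events. Over all tested events, 5.57% had an unadjusted p below 0.05 in limma. At an unadjusted p below 0.05 in limma were 1 of 10 for oligodendrocytes, the Mbp exon above, and 1 of 2 for vascular cells, a 270-nt exon of the fibronectin gene Fn1. Its PSI was 0.342, 0.267, 0.379 and 0.290 in set 1 and 0.139, 0.174, 0.260 and 0.194 in set 2, without overlap. There were 0 of 4 for astrocytes, 0 of 2 for microglia, 0 of 5 for neurons in general and 0 of 3 for cortex, hypothalamus, septum and choroid plexus.

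Other leading exons lay outside these lists. Higher in set 2 were a 229-nt exon of Emc8, a subunit of the membrane protein insertion complex of the endoplasmic reticulum, at 0.089 ± 0.037 and 0.249 ± 0.057 (SD, n = 4), and a 93-nt exon of Sec31a, a COPII coat protein, at 0.024 ± 0.013 and 0.096 ± 0.019 (SD, n = 4). A 118-nt exon of Plcb1, a phospholipase C, had 0.597 ± 0.054 and 0.757 ± 0.093 (SD, n = 4). Lower in set 2 were a 69-nt exon of the kinase gene Tlk1, at 0.106 ± 0.015 and 0.047 ± 0.013 (SD, n = 4), and a 177-nt exon of Pank2, a kinase of coenzyme A synthesis, at 0.905 ± 0.086 and 0.605 ± 0.079 (SD, n = 4). Tlk1, Pank2, Emc8 and Sec31a did not overlap between the sets, whereas Plcb1 did through library 1 of set 2. Ncoa5, a nuclear receptor coactivator, had a 56-nt and a 67-nt form of 1 exon, both lower in set 2 and counted against the same skipping reads, 6 in set 1 and 17 in set 2.

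**Figure D3:**
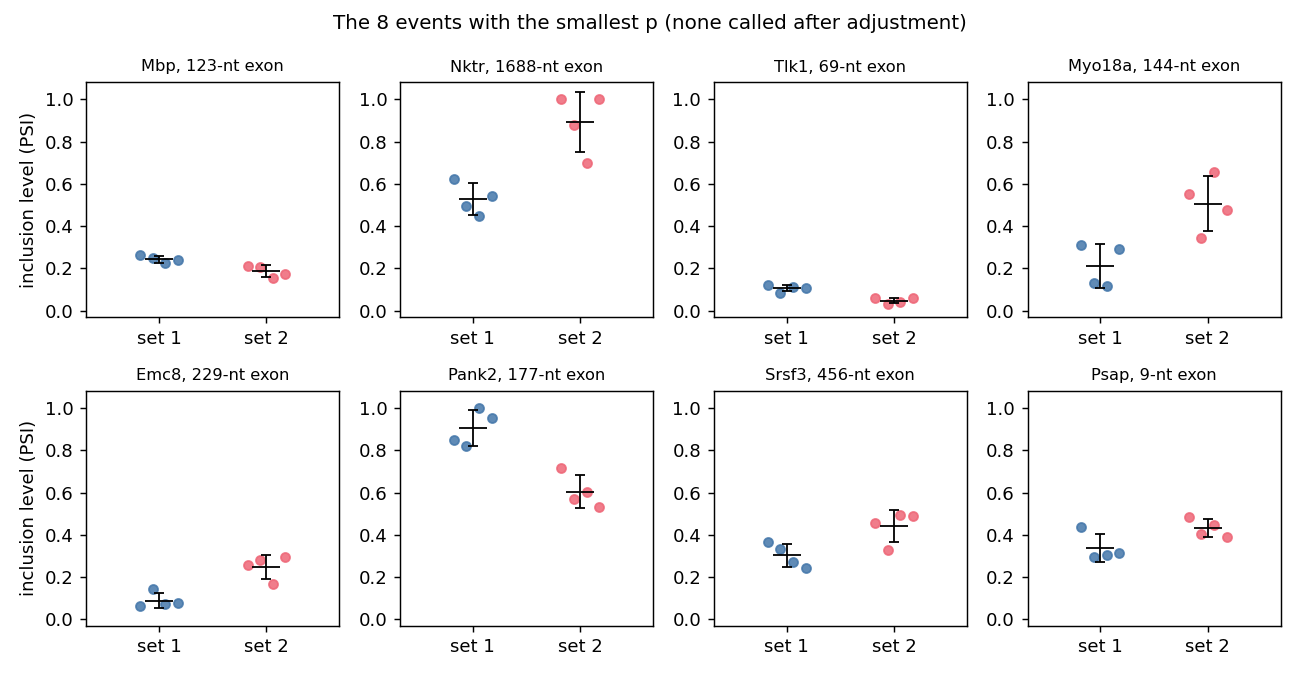
Inclusion level (PSI, 0 to 1) in each summed library for the 8 events with the smallest p, set 1 in blue and set 2 in red, with mean and SD of 4 libraries. Sets are apart for Mbp, Nktr, Tlk1, Myo18a, Emc8 and Pank2 and overlap for Srsf3 and Psap, and limma called none of them.

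Shares of events at an unadjusted p below 0.05 lay between 4.96% and 6.14% across exon lengths. Microexons of 27 nt or less made 8 of 157 (5.10%), exons of 28 to 60 nt 24 of 410 (5.85%), those from 61 nt to below 300 nt 90 of 1610 (5.59%) and those of 300 nt or more 6 of 121 (4.96%). Exons of a length divisible by 3, which keep the reading frame, made 74 of 1418 (5.22%), and the others 54 of 880 (6.14%). All 6 shares lie near the 5.57% of the whole table. The median logit difference was 0.07 for microexons and 0.03 over all events.

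The overall inclusion of the libraries was close. The median PSI was 0.578, 0.559, 0.537 and 0.564 in set 1 and 0.570, 0.570, 0.567 and 0.581 in set 2, a difference of 0.012 (exact permutation p = 0.257, n = 4 per set). Without library 1 of set 1 it was 0.018, with an exact permutation p of 0.0286, the smallest that 4 against 3 can give here, and without library 3 of set 1 it was 0.00477. Skipping reads made 34.0 ± 0.713% of reads in set 1 and 33.9 ± 0.849% in set 2 (SD, n = 4, exact permutation p = 0.857). In the series' other table, of an HSV Set2 experiment in the same region, 1835 exons had a match by gene and unique exon length. Across these exons, which are not independent replicates, the mean PSI of the 2 tables had a Spearman correlation of 0.934 and a median absolute difference of 0.0451.

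The authors' deposited table gives its own adjusted p (padj) and dPSI, set 2 minus set 1. There, 262 events had padj below 0.05, 118 of them higher in set 2 and 144 lower, and 321 had no padj. Of the 262, 115 did not pass the read minimum and had a median of 6.38 reads per library. The other 147 make 6.4% of the tested events, 87 of them higher (3.79%) and 60 lower, in 136 genes. Direction in the summed libraries was the same in 144 of the 147. An unadjusted p below 0.05 in limma was reached by 56 of them (38.1% of the 147 and 43.8% of the 128), and in 30 the sets did not overlap. The median absolute difference of these 147 was 0.117 in the authors' dPSI and 0.0824 in the summed libraries. Both numbers come from the same reads, so one does not test the other.

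Of the 10 tested events with the smallest padj in the authors' deposited table, Nktr, Mbp, Psap and Ccser2 are also leading events here. Rnf14, a ubiquitin ligase gene, had padj 0.00219 and a dPSI of 0.062 in the authors' deposited table for a 152-nt exon, while the summed libraries gave 0.919 ± 0.011 and 0.933 ± 0.009 (SD, n = 4). Fkbp1a, which encodes the immunophilin FKBP12, had padj 0.00140 there for a 235-nt exon, with 0.025 ± 0.007 and 0.033 ± 0.003 (SD, n = 4) here. Slmap, with a 63-nt exon at 0.596 ± 0.136 and 0.827 ± 0.023 (SD, n = 4), did not overlap between the sets, while Rnf14 and Fkbp1a did. Dnajc6, an auxilin gene, and Trak2, a mitochondrial transport adaptor gene, are also among the 10, both with higher means in set 2 and overlap.

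**Figure D4:**
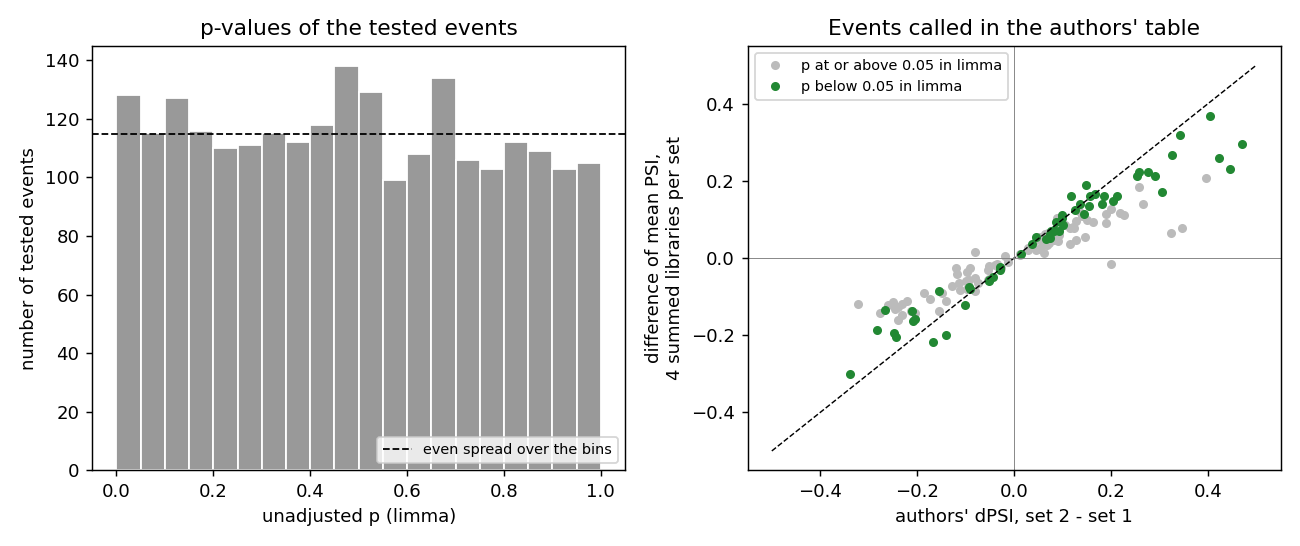
Left, the number of tested events by unadjusted limma p in 20 bins, with the level of an even spread dashed. Right, for the 147 tested events called in the authors' deposited table, their dPSI (x) against the difference of mean PSI of the summed libraries (y), with 56 events at a limma p below 0.05 in green and the line of equal values dashed.

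Gene coverage, the reads of a gene's deepest event, was compared in 1735 genes as a rough measure of expression. It counts reads at 1 exon and its junctions and so moves with inclusion as well as with transcript level. Limma called 0 genes (0%) with a smallest adjusted p of 0.458, and 155 (8.93%) had an unadjusted p below 0.05, 71 higher and 84 lower (4.84%) in set 2. No second tool was run on coverage. In 69 genes (3.98%) the sets did not overlap. The median log2 difference was -0.01 over all genes, with a median SE of 0.230.

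Genes of the interferon response, which cells switch on when they sense viral nucleic acid, had lower coverage in set 2 in 11 of 12 cases. Of these, 6 had an unadjusted p below 0.05, beside 4.84% of all genes that were lower at that p. In 4 the sets did not overlap, beside 3.98% of all genes in either direction. The median log2 difference of the list was -0.73. The interferon list was chosen with earlier results of these data known, so these counts are descriptions. Samhd1, a dNTP hydrolase that restricts viruses, had the smallest p of all genes. It had 168, 271, 213 and 149 CPM (over the deepest events of the kept genes, TMM-scaled) in set 1 and 60.05, 54.0, 114 and 101 in set 2. All of set 2 lay below set 1 (log2 difference -1.29 ± 0.31 SE, adjusted p = 0.458 in limma). Dhx58, a cytosolic RNA sensor, had 135, 187, 178 and 145 against 87.4, 42.0, 81.4 and 75.6, also apart. Rsad2, the antiviral enzyme viperin, had 160, 409, 158 and 165 against 21.8, 150, 70.5 and 145, apart as well, with library 2 of set 1 far above the others. These CPM rest on few reads, with means per library of 29.75 for Samhd1, 24.75 for Dhx58 and 32.1 for Rsad2, near the minimum of 20. Rsad2 had 4, 25, 13 and 23 reads in the libraries of set 2.

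Without library 2 of set 1, 9 of the 12 interferon genes were lower, 3 with an unadjusted p below 0.05, and without library 1 of set 2 the median was -0.47. Among the 6 genes with a mean of 50 reads, 5 were lower, 1 of them with an unadjusted p below 0.05, at a median of -0.28. The splicing of these genes did not stand out: 0 of their 12 tested events had an unadjusted p below 0.05 in limma, beside 5.57% of all tested events.

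Coverage of cell type markers was compared in the same way, and limma called none of these genes. Oligodendrocyte markers were lower in set 2 in 5 of 5 genes, with a median of -0.44. Of these, 3 had an unadjusted p below 0.05, beside 4.84% of all genes that were lower at that p. The oligodendrocyte list was likewise chosen with earlier results known, so its counts are descriptions. Mag, a myelin adhesion protein gene, had 616, 602, 726 and 823 CPM against 448, 528, 499 and 472, without overlap. Without library 3 or 4 of set 1, 1 gene was at an unadjusted p below 0.05. With a minimum of 5 reads, 5 of 7 genes were lower, at a median of -0.22. The summed level of Mbp, Mag and Mobp was 10941 to 17743 CPM in set 1 and 9718 to 13943 in set 2, so the ranges overlap. In bulk tissue, fewer cells of a type and less RNA per cell cannot be told apart. Mbp splicing was measured in the same libraries, and the part of oligodendrocyte content in it was not tested.

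Cd68, a lysosomal protein gene of microglia and macrophages, had 4080, 8143, 6518 and 5868 CPM against 3172, 3092, 6554 and 4138. Its log2 difference was -0.56 ± 0.23 SE, with libraries 3 and 4 of set 2 within the range of set 1. Medium spiny neuron, dopamine and cocaine genes were higher in 10 of 13 cases, at a median of 0.15. Tac1, which encodes the substance P precursor of direct pathway neurons, had 864, 1469, 1570 and 930 against 1048, 1423, 3049 and 2513, high in libraries 3 and 4 of set 2 and overlapping otherwise. Astrocyte markers were higher in 2 of 5 genes, with a median of -0.03 and none at an unadjusted p below 0.05. Markers of neurons in general were higher in 2 of 3 genes and lower in 1, with a median of 0.05. Of these 3 genes, 1 had an unadjusted p below 0.05 in limma, beside 8.93% of all genes. The part of these coverage differences in the splicing differences above was not tested.

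**Figure D5:**
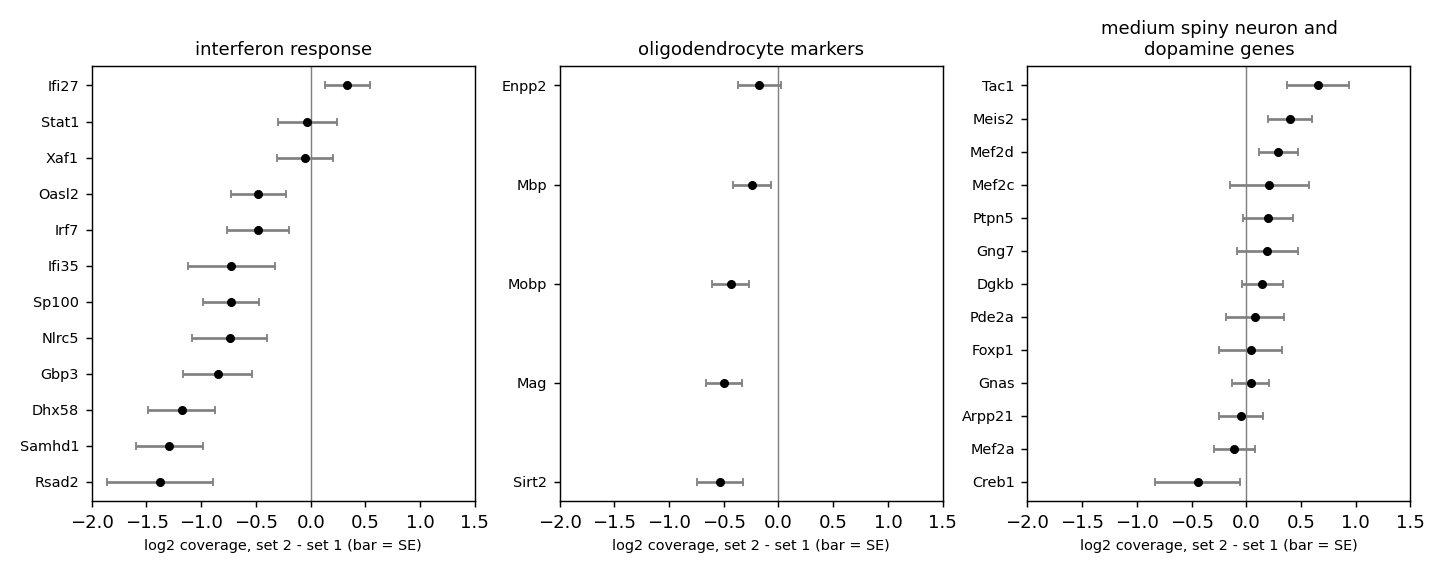
Log2 difference of coverage, set 2 minus set 1, with SE (n = 4 per set), for each gene of the interferon, oligodendrocyte and medium spiny neuron lists. Interferon genes lie below 0 in 11 of 12 cases, oligodendrocyte genes in 5 of 5, and the third list above 0 in 10 of 13, with none called by limma.

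SR proteins and their kinases had a median log2 difference of -0.03 over 26 genes, with 2 lower at an unadjusted p below 0.05, Scaf1 (log2 difference -0.50 ± 0.22 SE) and the kinase gene Clk2 (-0.58 ± 0.27 SE). Core spliceosome genes had 3 of 15 at an unadjusted p below 0.05, 2 higher and 1 lower, at a median of -0.09. Of all 1735 genes, 8.93% had an unadjusted p below 0.05, and 4.84% were lower at that p. Snrpb, a protein of the Sm ring of snRNPs, had 427, 421, 355 and 351 CPM against 289, 306, 250 and 271, without overlap (log2 difference -0.47 ± 0.18 SE, adjusted p = 0.469 in limma). Rbm5, an RNA-binding splicing regulator, had 397, 235, 260 and 198 against 388, 420, 423 and 321, with overlap (log2 difference 0.55 ± 0.22 SE). Snrnp70, a protein of the U1 snRNP, had 5611, 5290, 3867 and 4544 against 6720, 5308, 6907 and 6846, with overlap through library 2 of set 2 (log2 difference 0.42 ± 0.15 SE). Celf4, a neuronal RNA-binding protein gene, had 1323, 1192, 1480 and 1410 against 1763, 1561, 1926 and 1959, without overlap (log2 difference 0.41 ± 0.14 SE, adjusted p = 0.458 in limma).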

How the data were processed

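Junction reads of the dCas9-SET2 experiment were analysed from 1 deposited table. Its inclusion and skipping reads are whole numbers joined within a cell, 16 per set and form, without sample names, so 32 positions carry no sample (5 in the HSV table). The submitters' processing notes name STAR 2.4.1d, Bowtie2, mm9 and mm10 without a role for any. Neither the event caller nor the authors' test is given in the sources used here. The authors deposited an adjusted p-value (padj) and a difference score (dPSI) for each event. The inclusion level was recomputed as inclusion reads over (exon length + 99)/99, against skipping reads, and matched the deposited level within 0.001 in 100% of values. Exon starts were deposited as 0-based and are given as 1-based here. Of the exons in 5512 events with a matched gene, 99.8% lay inside the gene's GRCm38 span.

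Counts joined in cells are no columns of counts, so no count model was the main test, and a quasi-binomial model of the reads was run only as an alternative. The logit of inclusion (0.5 added) was modelled with R 4.3.3 and limma 3.58.1, weighted by reads times p(1 - p) with p the pooled inclusion share, with a prior spread trended on depth, and adjusted with Benjamini-Hochberg over 2298 events (calls at 0.05, two-sided). Coverage (CPM) used TMM scaling with trims of 0.3 and 0.05, and limma was run on its log2 after adding 0.5 to every count, which understates changes of genes with few reads. Both fits were tested on simulated data. Named were all Srsf11 events, the 12 smallest p in each direction where none was called, the authors' 10 smallest padj and up to 4 genes per list and fit, from which examples were taken. The members and the 17 lists were chosen with earlier results of these data known. Alternatives changed weights, prior spread, added count, read minimum, the dropped position, a replicate block, the model and single libraries. Other samples of the series were not analysed here, apart from the match of exons to the HSV table. Some results of the named lists are not reported here.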

Additional observations from a re-analysis of the deposited data

Results flagged for a closer look

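In 17 of 292 groups of 4 libraries examined, 1 library lay far from the other 3 of its set. Chance flags about 1 in 20 groups, close to this share. Of the inclusion levels, the long event of the Srsf11 109-nt exon was 0.054 in library 4 of set 1 (others 0.141 to 0.157). In set 1, library 1 had 0.435 for the Psap 9-nt exon (others 0.297 to 0.313) and 0.017 for the Slc1a2 149-nt exon (others 0 to 0.002). Library 2 of set 1 had 0.144 for the Emc8 229-nt exon (others 0.063 to 0.076) and 0.239 for the Sirt2 47-nt exon (others 0.191 to 0.197).

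In set 2, library 1 had 0.619 for the Plcb1 118-nt exon (others 0.794 to 0.820), 0.784 for the Gnas 24-nt exon (others 0.947 to 0.971) and 0.004 for the Slc1a2 exon (others 0). Library 4 had 0.046 for the Rbm25 118-nt exon (others 0 to 0.007), 0.502 for the Nfasc 18-nt exon (others 0.566 to 0.578) and 0.205 for the Enpp2 75-nt exon (others 0.374 to 0.404).

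Coverage in CPM stood apart in 6 groups. In set 1, Kcnd3 had 131 in library 1 (others 82.9 to 86.8) and Rsad2 409 in library 2 (others 158 to 165). In set 2, library 2 had 5308 for Snrnp70 (others 6720 to 6907) and 2582 for Ahi1 (others 1638 to 1694), and library 3 had 228 for Nfasc (others 420 to 428) and 168 for Slc2a1 (others 235 to 246).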

How the results depend on the processing

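Splicing calls stayed at 0 in limma under the other alternatives and were 2 (Mbp and Psap) with weights from each library's own counts, with the replicate block by library order and in the quasi-binomial model. They were 0 to 1 when 1 library was left out, and the authors' deposited padj gives 147. Under the replicate block both exons had an adjusted p of 0.00125 (limma). The labels give both guides the same 4 sample numbers, which the positions of the table do not carry, and library order was not taken to pair the sets: the deviations of same-ordered libraries correlated at 0.07, -0.03, 0.07 and 0.05 in splicing and at 0.28, -0.11, 0.13 and 0.02 in coverage, where 2 of 4 libraries correlated best with their own order. Coverage calls were 0 in all 16 alternatives. Leaving out 1 library gave logit differences of 0.18 to 0.57 and 0.13 to 0.65 for the tested Srsf11 events, differences of 0.00477 to 0.0182 in median inclusion and of -0.433 to 0.241 percentage points in skipping reads, which changed sign without library 3 or 4 of set 1 (0.0933 and 0.0211) and without library 1 or 2 of set 2 (0.241 and 0.0331).

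Of 1559 alternative values of 80 named events, 1548 kept direction and side of the threshold, 7 became calls (those of Mbp and Psap) and 4 changed sign. Sign changes, with the range over left-out libraries, were Slc4a4 (-0.40 to 0.19), Slc1a2 (-0.79 to 0.12) and Rbfox3 (-0.24 to 0.29). In coverage, 7 of 927 values of 59 genes changed sign: Slc1a2 (-0.30 to 0.00298), Syt1 (-0.0214 to 0.12) and Ahi1 (-0.15 to 0.15, and -0.000507 scaled to total reads and -0.00425 at a mean of 50 reads). Events at an unadjusted p below 0.05 numbered 263 of 4836 with a minimum of 5 reads, 41 of 919 with 50, and 187 of 2416 with position 8 kept. The median 95% interval of the splicing fit reaches 0.855 on the logit scale to either side.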
